A study of Homo sapiens with 9 samples.

Results

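HMGA1, HMGA2, IGF2BP1, IGF2BP2, IGF2BP3 and LIN28B are genes active in the embryo and often high in tumours, most of them low in adult tissues, and they are known as targets of the let-7 microRNAs. They were found by their symbols, 1 row each, among the 30956 genes of the deposited table, and all 6 passed the filter on low values that left 16765 genes for testing. The data come from RNA immunoprecipitation sequencing (RIP-seq) in HEK293T cells, a human embryonic kidney line. RNA bound to CCR4-NOT was recovered through V5-tagged CNOT7, a nuclease subunit with the substitution D40A that impairs its catalytic activity. The groups were 3 RIP libraries and 3 input libraries, from cytoplasmic RNA per the labels.

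The labels name 6 input libraries. Doxycycline (3 µg/mL, 24 h) had been added to the cells of 3 of them and was left out for the other 3. The 3 input columns of the deposited table carry names that match both kinds, so they were used as 1 input group whose doxycycline state is not known. The labels do not say whether the RIP cells received doxycycline. No immunoprecipitate from cells without the tagged protein was analysed here, so RNA that sticks nonspecifically was not subtracted. Whether the replicates are separate cultures is not stated, and the p-values therefore reflect only library-to-library spread, which may be technical.

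CCR4-NOT is the main deadenylase complex of the cytoplasm: it shortens poly(A) tails, which starts mRNA decay. MicroRNAs bring it to their targets through Argonaute and TNRC6 proteins, which bind the complex. let-7 microRNAs accumulate as cells differentiate, and LIN28 proteins block their maturation, so LIN28B is both a target and an inhibitor of let-7.

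All let-7 family members share their seed, the bases that pair with a target mRNA, and for that reason the mature sequences are shown here from RefSeq (GRCh38.p14), with the seed, bases 2 to 8 from the 5′ end, in capitals. The 9 mature microRNAs named let-7 or miR-98 with this seed come from 12 genes, and microRNAs of other names were not searched. The seed pairs with the letters CUACCUC in a target. Against let-7a, let-7c differs by A19G and let-7e by U9G (let-7a base, position from the 5′ end, other base). The 9 sequences were selected by this seed, so none can differ within it.
let-7a-5p: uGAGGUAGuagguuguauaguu
let-7b-5p: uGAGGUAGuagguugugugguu
let-7c-5p: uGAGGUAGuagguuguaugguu
let-7d-5p: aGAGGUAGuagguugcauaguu
let-7e-5p: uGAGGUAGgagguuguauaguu
let-7f-5p: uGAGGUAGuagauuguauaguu
let-7g-5p: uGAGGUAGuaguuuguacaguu
let-7i-5p: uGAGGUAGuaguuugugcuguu
miR-98-5p: uGAGGUAGuaaguuguauuguu

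Depth was close across libraries, from 37140622 to 40764899 reads in genes in RIP and from 37290120 to 38918356 in input. Mitochondrially encoded RNA took 0.931 to 1.12% of these reads in RIP, against 18.6 to 26.6% in input. The part of that gap in the folds was not tested on its own. With total-count scaling in place of the authors' size factors, the median log2 fold of all tested genes moved by 0.49, and enriched genes were 78.8% of all called genes in place of 51.4%. Of the markers checked for the line, VIM stood at 9425 to 10934 normalized counts in RIP and 27557 to 31429 in input. PAX2, a kidney lineage factor, stood at 1134 to 1355 in RIP and 556 to 668 in input. Others were low: EPCAM at 0 to 35.3 in RIP and 61.7 to 98.1 in input, and LHX1 at 58.1 to 264 in input (409 to 437 in RIP). The liver marker ALB and the endothelial markers CDH5 and PECAM1 reached at most 10.8 normalized counts in any library, and the fibroblast collagen COL1A1 stood at 322 to 535 in RIP and 375 to 545 in input. RIP replicate 2 had no read for 14786 genes, against 6720 and 6398 in the other RIP libraries, and the 6 genes had at least 2726 reads in every library.

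The 6 mRNAs were not enriched with CCR4-NOT as a group. HMGA1 and all 3 IGF2BP mRNAs fell in RIP relative to input, and neither HMGA2 nor LIN28B passed the test. That is 4 of 6 lower and 0 of 6 higher at an adjusted p under 0.05 in limma, beside 21.2% of all tested genes lower, 22.4% higher and 43.6% called in either direction. At an unadjusted p under 0.05 limma, edgeR and DESeq2 also placed 0 of the 6 higher. On the recovered reads edgeR called the same number of the 6 lower, 4, beside 20.5% of all genes lower, 22.2% higher and 42.6% in either direction. DESeq2 also called 4 lower, beside 22.1% lower, 22.6% higher and 44.7% in either direction. The authors' deposited table had 4 of the 6 lower, beside 19.9% of its genes lower, 20.6% higher and 40.5% in either direction. Under total-count scaling limma called only HMGA1 lower and LIN28B higher, beside 9.86% of genes lower, 36.7% higher and 46.5% in either direction. With mitochondrial and small RNA genes left out of the total, limma called 4 lower and 0 higher. Of 16634 genes tested that way, 2923 were lower and 4339 higher. The median log2 fold of all tested genes was -0.043, so a fold near 0 means recovery like that of a typical gene. A log2 fold is the mean of log2(normalized count + 1) in RIP minus that in input. The fold compares recovery in RIP with input and does not measure how much of an mRNA the cells hold. In bulk libraries, fewer cells holding an mRNA and less of it per cell cannot be told apart.

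**Figure D1:**
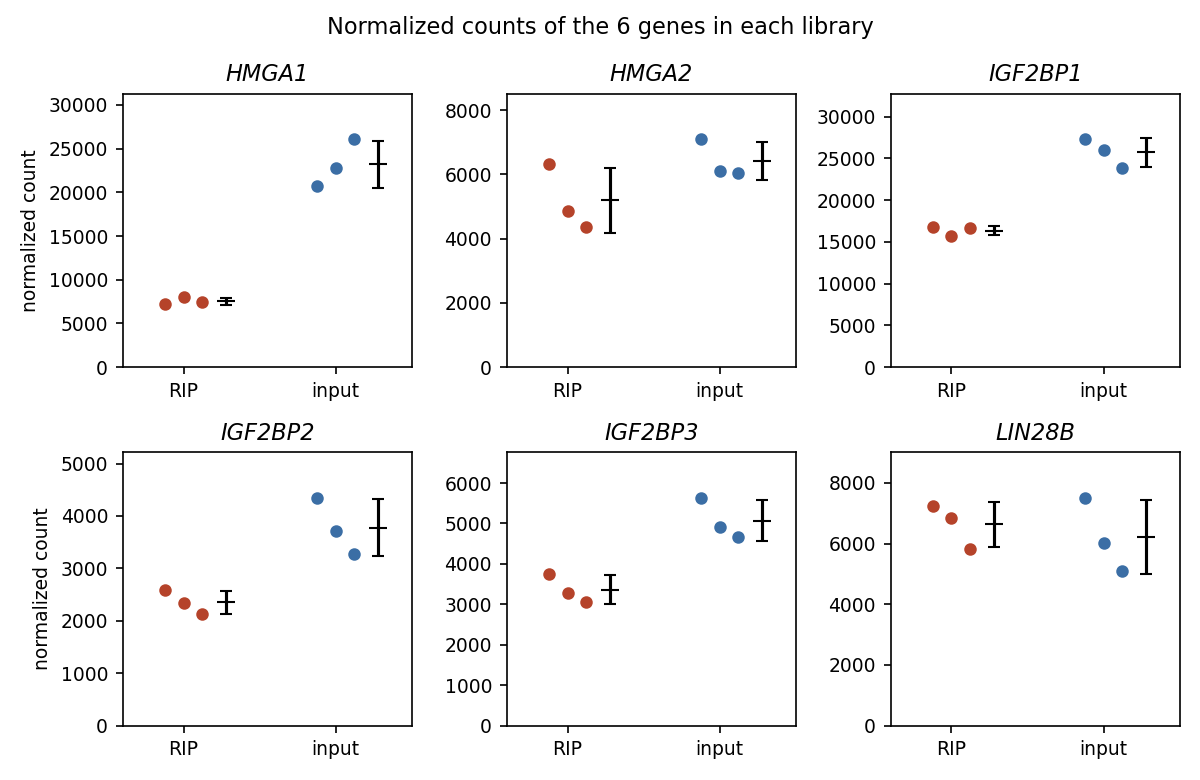
Normalized counts (vertical axes, from 0, a scale of its own in each panel) of the 6 genes in each of 3 RIP and 3 input libraries, with the mean and SD beside the points. RIP and input do not overlap for HMGA1, IGF2BP1, IGF2BP2 and IGF2BP3, and they overlap for HMGA2 and LIN28B. Of all tested genes 54.7% do not overlap in either direction, and 27.3% lie lower in RIP without overlap.

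HMGA1 and HMGA2 encode small proteins that bind AT-rich DNA through AT hooks and bend it, and so shape chromatin around promoters and enhancers. HMGA1 (ENSG00000137309, chromosome 6, 34236873 to 34246231, GRCh38.p14) had 7236, 7983 and 7431 normalized counts in the 3 RIP libraries, against 20699, 22823 and 26088 in the 3 input libraries. The groups lay far apart, with the highest RIP library below the lowest input library. Its mean was 7550 ± 388 in RIP and 23203 ± 2714 in input (SD, n = 3 each). The log2 fold was -1.61 (SE 0.12, 95% interval -1.88 to -1.35, limma adjusted p = 1.5e-06), so input held 3.06 times as much as RIP.

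HMGA1 had a lower fold than most transcripts: 9.95% of all tested genes and 7.46% of the 13367 tested protein-coding genes lay below it. It was also lower in RIP under each of the 16 other settings tested, with log2 folds from -1.69 to -1.12. HMGA1 has processed pseudogenes that could share its reads. The 5 HMGA1 pseudogene rows in the table together held 45.1 normalized counts in RIP and 77.7 in input.

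HMGA2 is the best known let-7 target of the family, with several let-7 sites in its mRNA. HMGA2 (ENSG00000149948, chromosome 12, 65824460 to 65966291) had 6331, 4872 and 4376 normalized counts in the RIP libraries, against 7097, 6109 and 6043 in the input libraries. The highest RIP library lay inside the input range and the other two RIP libraries lay below it. The mean was 5193 ± 1016 in RIP and 6416 ± 590 in input (SD, n = 3 each), a log2 fold of -0.32 (SE 0.15, 95% interval -0.64 to 0.00072, limma adjusted p = 0.10).

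HMGA2 therefore did not pass the main test, which left out the replicate numbers. Its result turned on single libraries, on scaling and on the use of those numbers. With the replicate number as a block the log2 fold of -0.32 passed (limma adjusted p = 0.015). Without RIP replicate 1 its log2 fold was -0.47 and passed (limma adjusted p = 0.011). Under total-count scaling it was 0.18 (limma adjusted p = 0.39). With mitochondrial and small RNA genes left out of the total it was -0.19 (limma adjusted p = 0.32). The authors' deposited table gave HMGA2 a log2 fold of -0.31 (SE 0.15, DESeq2 adjusted p = 0.082).

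The ratio of the 2 HMGA mRNAs within a library does not move with scaling. HMGA1 had 1.14, 1.64 and 1.70 times the normalized counts of HMGA2 in the RIP libraries, against 2.92, 3.74 and 4.32 times in the input libraries. The ratios did not overlap, and RIP minus input was -1.30 on the log2 scale: 0.56 ± 0.32 in RIP and 1.85 ± 0.29 in input (SD, n = 3 each; two-sided exact permutation p = 0.10, adjusted p = 0.175 over the 7 pairs compared). With 3 libraries against 3, the smallest p this test can give is 0.10.

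The IGF2BP proteins bind mRNAs through KH and RRM domains and are known to stabilize and localize them. Among the 3 paralogs IGF2BP1 and IGF2BP3 are the oncofetal ones, while IGF2BP2 stays active in many adult tissues. IGF2BP1 (ENSG00000159217, chromosome 17, 48996558 to 49056145) had 16737, 15704 and 16605 normalized counts in the RIP libraries, against 27294, 26030 and 23823 in the input libraries. All RIP libraries lay below all input libraries. The mean was 16349 ± 562 in RIP and 25716 ± 1757 in input (SD, n = 3 each), a log2 fold of -0.65 (SE 0.11, 95% interval -0.90 to -0.41, limma adjusted p = 0.00054).

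IGF2BP2 (ENSG00000073792, chromosome 3, 185643130 to 185825042) had 2579, 2347 and 2137 normalized counts in the RIP libraries, against 4350, 3718 and 3270 in the input libraries. Its log2 fold was -0.68 (SE 0.14, 95% interval -0.98 to -0.37, limma adjusted p = 0.0019). The groups did not overlap. IGF2BP3 (ENSG00000136231, chromosome 7, 23310209 to 23470491) had 3753, 3276 and 3048 normalized counts in the RIP libraries, against 5640, 4903 and 4669 in the input libraries. Its log2 fold was -0.59 (SE 0.13, 95% interval -0.88 to -0.31, limma adjusted p = 0.0025), again without overlap between the groups.

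The 3 IGF2BP paralogs thus moved by nearly the same amount, with input holding 1.57, 1.6 and 1.51 times as much as RIP for IGF2BP1, IGF2BP2 and IGF2BP3. Their position among all tested genes was moderate, since 29.3%, 28.7% and 31.1% of genes had a lower fold. Non-overlap of the 2 groups was common in this comparison: 27.3% of all tested genes lay lower in every RIP library than in every input library, 27.4% lay higher, and 54.7% did not overlap in either direction.

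All 3 IGF2BP calls were lost under total-count scaling. Under total-count scaling the log2 folds of IGF2BP1, IGF2BP2 and IGF2BP3 were -0.16, -0.18 and -0.10, and none passed (limma adjusted p = 0.39, 0.38 and 0.61). As shares of all reads in genes, IGF2BP1 held 517 to 554 CPM (reads scaled to a common library total) in RIP and 526 to 672 CPM in input, so the groups overlapped on that scale. HMGA1 did not overlap on it, with 235 to 263 CPM in RIP and 510 to 577 CPM in input. How many of all tested genes do not overlap in CPM was not counted. With mitochondrial and small RNA genes left out of the total, the 3 IGF2BP folds were -0.52, -0.55 and -0.46 and all passed (limma adjusted p = 0.0023, 0.0066 and 0.010).

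**Figure D2:**
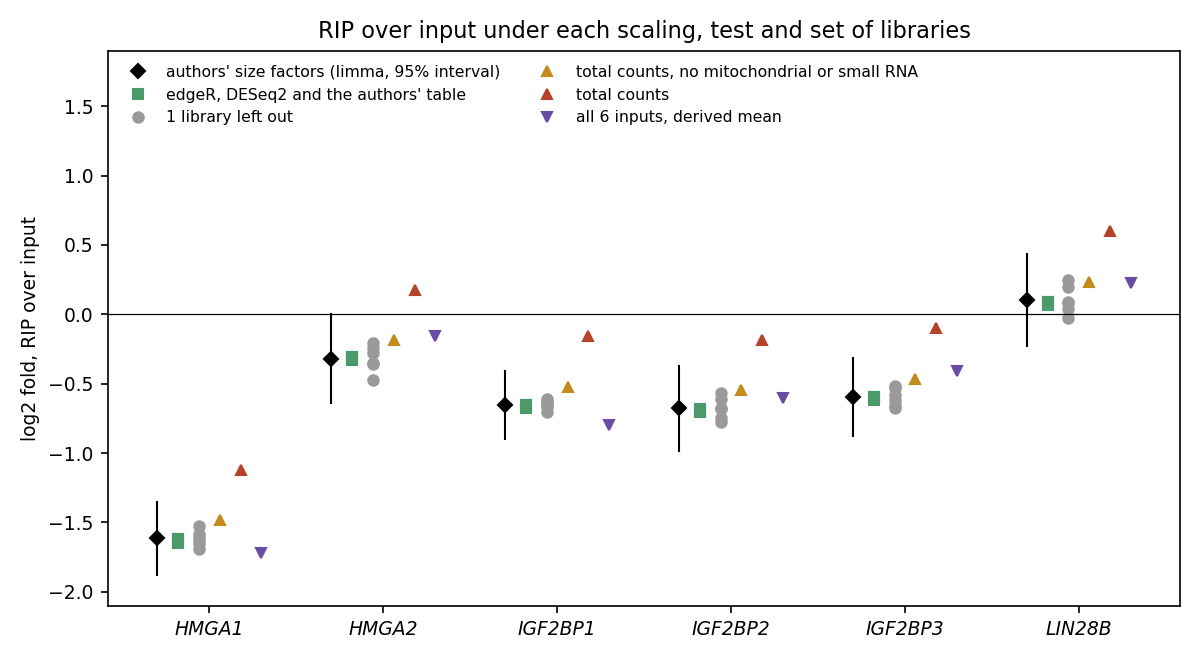
Log2 fold of RIP over input (vertical axis) for each of the 6 genes under the authors' size factors with limma and its 95% interval, under other tests, with 1 library left out, under 2 forms of total-count scaling, and against the derived mean of all 6 inputs. HMGA1 stays between -1.72 and -1.12. Scaling by all counts brings the 3 IGF2BP folds to between -0.18 and -0.10 and sets HMGA2 and LIN28B above 0. With mitochondrial and small RNA genes left out of the total, HMGA2 lies at -0.19 and LIN28B at 0.23.

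The ratios between IGF2BP paralogs were alike in both groups. IGF2BP1 had 6.49, 6.69 and 7.77 times the normalized counts of IGF2BP2 in the RIP libraries, against 6.27, 7.0 and 7.28 times in the input libraries, which overlap (log2 difference 0.025, two-sided exact permutation p = 0.90, n = 3 each). For IGF2BP1 over IGF2BP3 the log2 difference between RIP and input was -0.057 (two-sided exact permutation p = 0.60, n = 3 each). For IGF2BP2 over IGF2BP3 it was -0.082 (two-sided exact permutation p = 0.30, n = 3 each). After adjustment over the 7 pairs these were 0.90, 0.70 and 0.42. The design cannot reach a p under 0.10, so these tests do not show that the paralogs act alike.

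LIN28B is an RNA-binding protein with a cold-shock domain and zinc knuckles that binds let-7 precursors and blocks their processing. LIN28B (ENSG00000187772, chromosome 6, 104937026 to 105083332) had 7242, 6827 and 5812 normalized counts in the RIP libraries, against 7512, 6031 and 5109 in the input libraries. All 3 RIP libraries lay inside the range of the input libraries. The mean was 6627 ± 736 in RIP and 6217 ± 1213 in input (SD, n = 3 each), a log2 fold of 0.10 (SE 0.15, 95% interval -0.23 to 0.43, limma adjusted p = 0.61). The authors' deposited table gave LIN28B a log2 fold of 0.092 (SE 0.15, DESeq2 adjusted p = 0.70).

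LIN28B had the highest fold of the 6, and 55.1% of all tested genes lay below it. Under total-count scaling its log2 fold was 0.60 and passed (limma adjusted p = 0.011). The median over all tested genes was then 0.45, with 36.7% of them higher and 9.86% lower. On that scale LIN28B held 194 to 235 CPM in RIP and 113 to 185 CPM in input, without overlap. The share of all genes without overlap in CPM was not computed. With mitochondrial and small RNA genes left out of the total, its log2 fold was 0.23 and did not pass (limma adjusted p = 0.23). With the authors' size factors and without the third input library, the log2 fold was -0.029 (limma adjusted p = 0.90).

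LIN28B was also set against IGF2BP1 and HMGA2 within each library. LIN28B had 0.433, 0.435 and 0.350 times the normalized counts of IGF2BP1 in the RIP libraries, against 0.275, 0.232 and 0.214 times in the input libraries. Against HMGA2 it had 1.14, 1.40 and 1.33 times the normalized counts in the RIP libraries and 1.06, 0.987 and 0.846 times in the input libraries. HMGA2 over IGF2BP1 gave 0.378, 0.310 and 0.264 in the RIP libraries and 0.260, 0.235 and 0.254 in the input libraries. None of these 3 ratios overlapped between the groups, and the log2 differences were 0.76, 0.42 and 0.33 (two-sided exact permutation p = 0.10 for each, the smallest possible, adjusted p = 0.175 over the 7 pairs, n = 3 each).

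**Figure D3:**
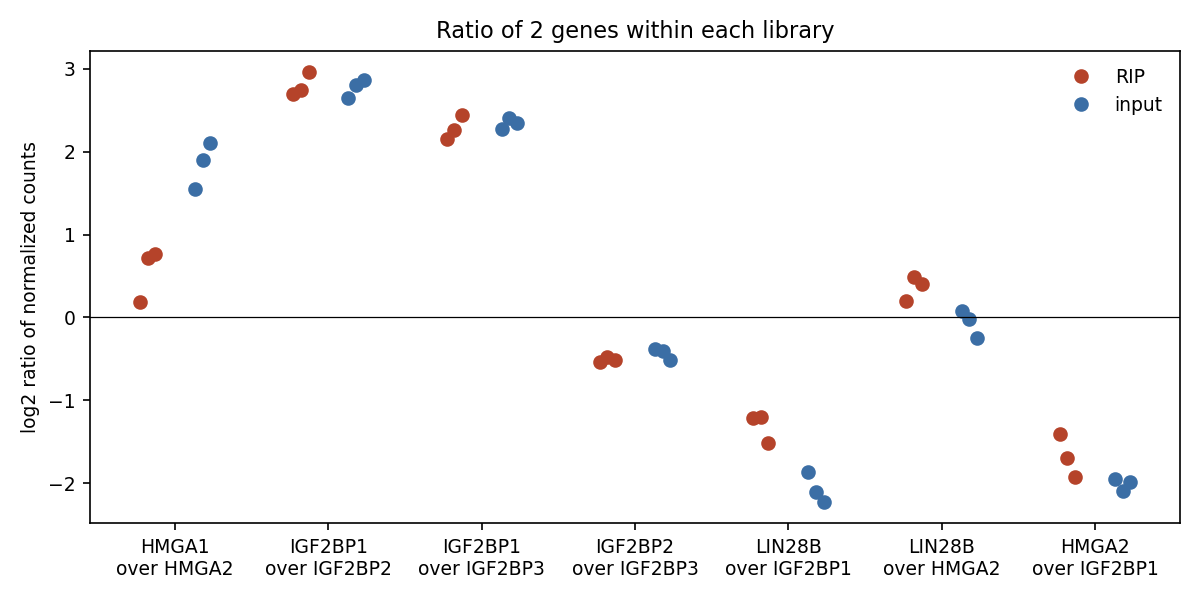
Log2 ratio of the normalized counts of 2 genes within each library (vertical axis), for 7 pairs, with 3 RIP libraries to the left of 3 input libraries. HMGA1 over HMGA2 differs by -1.30 (RIP minus input), LIN28B over IGF2BP1 is higher by 0.76, and the 3 ratios among IGF2BP paralogs overlap.

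In order of fold the genes ran from HMGA1 at -1.61 through IGF2BP2 at -0.68, IGF2BP1 at -0.65, IGF2BP3 at -0.59 and HMGA2 at -0.32 to LIN28B at 0.10. The IGF2BP folds lay within 1 SE of one another, and the 95% intervals of neighbours overlapped along the order except between HMGA1 and IGF2BP2. A longer mRNA yields more reads and no transcript lengths were used here, so a ratio between genes within a library was used to compare RIP with input and does not say which mRNA is more abundant.

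**Figure D4:**
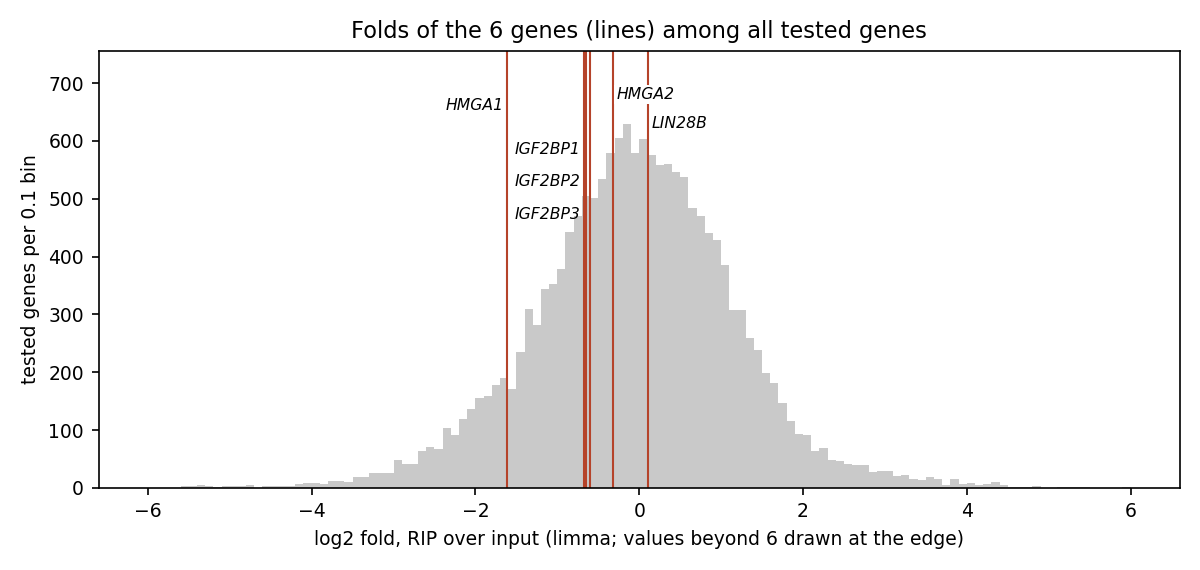
Number of tested genes (vertical axis) by log2 fold of RIP over input (horizontal axis, bins of 0.1), with red lines at the 6 genes. HMGA1 lies at -1.61 in the lower part of the distribution, the 3 IGF2BP genes lie together between -0.68 and -0.59, and HMGA2 and LIN28B lie near its middle.

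The genes whose values ran most like each of the 6 over the 6 libraries were picked by Pearson's r on log2 values among 11524 protein-coding genes with a mean of at least 100. Where the groups of a gene lie apart, r mostly follows the difference between RIP and input. For HMGA2 and LIN28B, whose groups overlap, r also follows the spread of libraries within each group. It is given as a description. HMGA1 was nearest to RPL19, a ribosomal protein gene with a log2 fold of -1.90 (r = 0.9998), and to MFGE8, which encodes a secreted glycoprotein (-1.81, r = 0.9997). IGF2BP1 was nearest to NOLC1, a nucleolar phosphoprotein gene (-0.71, r = 0.9996), and EIF5, a translation initiation factor gene (-0.48, r = 0.9993). IGF2BP2 was nearest to PODXL (-0.32, r = 0.998) and ASPH (-0.74, r = 0.997), and IGF2BP3 to CBX5, which encodes a heterochromatin protein (-0.62, r = 0.999), and EIF2AK2 (-0.98, r = 0.997). HMGA2 was nearest to CCDC6 (-0.20, r = 0.994) and ITGA8 (-0.19, r = 0.992). For LIN28B, AHCTF1 is given (0.23, r = 0.979).

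Other mRNAs known as let-7 targets were called above input in more cases than below it. Of 42 listed genes 41 were tested; 19 rose, 3 fell and 19 did not pass in limma, beside 22.4% of all tested genes higher and 21.2% lower. Their median log2 fold was 0.48, against -0.043 over all tested genes and -0.62 over the 6 oncofetal genes. The transcription factor MYC had 34660, 35107 and 37090 normalized counts in the RIP libraries, against 13076, 12226 and 13230 in the input libraries (log2 fold 1.47, SE 0.11, limma adjusted p = 1.5e-06). The activin receptor ACVR1B rose by 1.43 (SE 0.12, limma adjusted p = 3.0e-06), and FIGNL2, a microtubule-severing enzyme homolog, by 2.77 (SE 0.60, limma adjusted p = 0.0026). FIGNL2 stood at 148, 308 and 239 normalized counts in RIP and at 16.7, 28.5 and 66.3 in input.

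Of 19 tested genes for let-7 biogenesis, turnover and silencing, 7 rose, 3 fell and 9 did not pass in limma (median log2 fold 0.29), beside 22.4% of all tested genes higher and 21.2% lower. TNRC6A and TNRC6C, scaffolds that link Argonaute to CCR4-NOT, rose by 1.43 (SE 0.16, limma adjusted p = 2.1e-05) and 1.09 (SE 0.19, limma adjusted p = 0.00050). TRIM71, a stem cell ubiquitin ligase and let-7 target, rose by 1.0 (SE 0.14, limma adjusted p = 9.7e-05). The uridylyltransferases TUT4 and TUT7, which tail let-7 precursors bound by LIN28, rose by 0.72 and 0.69 (limma adjusted p = 0.011 and 0.0087). KHSRP and HNRNPA1, which bind let-7 precursors, and the exportin XPO5 fell, with log2 folds of -0.71, -0.97 and -0.54 (limma adjusted p = 0.00043, 9.8e-05 and 0.0024). TUT4, TUT7, KHSRP, HNRNPA1 and XPO5 were named after their values were seen. Under total-count scaling HNRNPA1 was the 1 gene of this list still lower, while KHSRP and XPO5 no longer passed (log2 folds -0.21 and -0.050).

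Of the let-7 host genes, 4 of the 7 matched were tested. In limma 0 rose and 1 fell, beside 22.4% of all tested genes higher and 21.2% lower. At an unadjusted p under 0.05 limma, edgeR and DESeq2 also gave 0 higher. HUWE1, the ubiquitin ligase gene whose introns hold let-7f-2 and miR-98, fell by 0.85 on the log2 scale (SE 0.13, limma adjusted p = 0.00017), and had -0.36 under total-count scaling (limma adjusted p = 0.083). The MIR98 hairpin was listed at 0 in all 6 libraries, which allows up to 0.0736 to 0.0808 CPM in a library (3 reads, for counting error only). Mature microRNAs were not analysed here.

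Of 11 tested oncofetal genes, which include 4 of the 6, 3 rose and 3 fell in limma, near the 22.4% higher and 21.2% lower of all tested genes, and their median log2 fold was -0.32. IGF2BP1 and IGF2BP3 are among those that fell. GPC3, a cell surface proteoglycan of fetal liver and liver tumours, had 589, 469 and 473 normalized counts in RIP, against 1792, 2268 and 2311 in input (log2 fold -2.05, SE 0.18, limma adjusted p = 3.5e-06). The trophoblast glycoprotein TPBG rose by 1.17 (SE 0.22, limma adjusted p = 0.00088). The imprinted RNA H19, a known sponge of let-7, had 66.2, 77.5 and 42.3 normalized counts in RIP and 0 in all 3 input libraries, at least 18.5-fold higher against a floor of 3 reads per library.

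Of 12 tested HMG protein genes 7 fell, 2 rose and 3 did not pass in limma (median log2 fold -0.50), beside 21.2% of all tested genes lower and 22.4% higher. Under total-count scaling 5 of these genes were higher and 5 lower, beside 36.7% of all tested genes higher and 9.86% lower. Their median was then -0.0088, against 0.45 over all tested genes. HMGN5 and HMGN3, nucleosome-binding proteins, had log2 folds of -2.21 (SE 0.37, limma adjusted p = 0.00044) and -1.55 (SE 0.20, limma adjusted p = 6.2e-05), while HMGXB4 rose by 1.77 (SE 0.13, limma adjusted p = 1.1e-06). Of 22 genes for KH domain proteins and IGF2BP partners 10 fell, 2 rose and 10 did not pass in limma (median log2 fold -0.43), beside the same shares of all tested genes. Under total-count scaling 8 were higher and 6 lower, with a median of 0.066, against 0.45 over all tested genes. YBX1, an abundant mRNA-packaging protein found with IGF2BP1, had 5072, 5934 and 6045 normalized counts in RIP, against 24653, 24593 and 28725 in input (log2 fold -2.19, SE 0.12, limma adjusted p = 3.3e-07). PCBP2 and KHDRBS1 had log2 folds of -1.20 (SE 0.14, limma adjusted p = 2.4e-05) and -1.02 (SE 0.12, limma adjusted p = 3.6e-05).

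**Figure D5:**
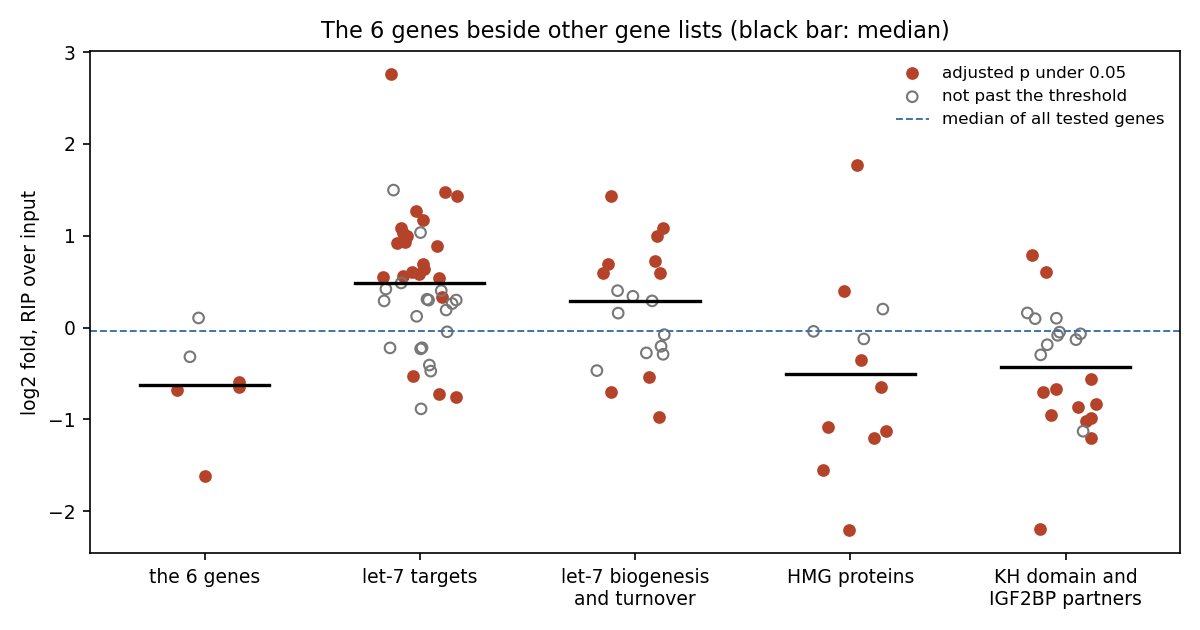
Log2 fold of RIP over input (vertical axis) for each tested gene of the 6 and of 4 gene lists, filled where the adjusted p is under 0.05, with the median as a black bar and the median of all tested genes as a dashed line. The let-7 target list has its median at 0.48, and the HMG list and the KH domain list have theirs at -0.50 and -0.43. Total-count scaling, not drawn here, moves the HMG and KH domain medians to -0.0088 and 0.066, and that of all tested genes to 0.45.

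The deposited mean over 9 libraries allowed the mean of the 3 input libraries that have no column to be derived, with no spread and no test. HMGA1 and IGF2BP1 were higher there than in the 3 input columns, with derived means of 26574 and 31169, or 1.15 and 1.21 times the mean of the columns. HMGA2, IGF2BP2, IGF2BP3 and LIN28B were lower, at 0.808, 0.896, 0.758 and 0.825 times. Over 12370 genes with a mean of at least 100, the log2 ratio between these inputs had its 5th and 95th percentiles at -0.94 and 0.87, so the 6 genes lay well inside the spread of all genes. Against the derived mean of all 6 inputs the log2 folds were -1.72 for HMGA1, -0.80 for IGF2BP1, -0.61 for IGF2BP2, -0.41 for IGF2BP3, -0.16 for HMGA2 and 0.22 for LIN28B.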

How the data were processed

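The deposited table came from STAR, featureCounts and DESeq2 on GRCh38, per the submitters' processing notes; the sources used here do not give versions, annotation release or strand setting. Its library columns hold a signal, read counts scaled by the authors with a size factor for each library. Within 0.01 read, 100% of values were whole multiples of 1 read, which gave back the whole counts behind the deposited values. The log2 fold, its SE, the Wald statistic (a score), the p-value and the adjusted p-value of RIP over input were deposited by the authors from DESeq2, per the file headers. The deposited mean normalized count (also a signal) covers 9 libraries.

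Genes with a mean of at least 10 over the 6 libraries were tested with limma 3.58.1 (lmFit, eBayes with trend, R 4.3.3) on log2(normalized count + 1), which slightly understates changes of low genes, with Benjamini-Hochberg adjustment over all 16765. limma was the planned test for values divided by size factors. It was checked on simulated counts in which few genes changed and the groups were otherwise alike in composition. That check does not cover the scaling question of these data. Alternatives were edgeR 4.0.16 and DESeq2 1.42.0 on the recovered reads, the authors' deposited table, other pseudocounts, filters and scalings, and leaving out each library. Pair ratios used scipy's exact permutation test. Without molecular identifiers, reads may repeat a molecule, and depth limits cover counting error only. Without a stated strand setting, reads of overlapping antisense genes cannot be told apart.

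The 6 genes and the lists were chosen with earlier results of these data known. The rule for names took all 6 genes, the 3 largest called folds of each list with a mean of at least 100, and the 2 most alike genes per member. One gene alike to LIN28B is not reported here. Other named genes were chosen after their values were seen. Symbols were matched to RefSeq, GRCh38.p14. let-7 sites in the mRNAs were not analysed here.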

Additional observations from a re-analysis of the deposited data

How the results depend on the processing

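The input columns carry replicate numbers, whichever kind of input they are, but the main fit and the pair tests did not use them. The deviations of same-numbered libraries from their group means correlated at 0.25, 0.0025 and 0.24. RIP 1 with input 3 gave -0.23 and RIP 3 with input 1 gave -0.26. Deviations from a group mean cancel out for each gene, so these negative values are not independent of the positive ones. By this measure 5 of 6 libraries correlated best with their own number, but RIP 2 did so at only 0.0025. Numbers 1 and 3 thus shared some variation that the unpaired tests left out, and number 2 did not. With the replicate number as a block limma gave 4053 enriched and 3925 depleted genes of 16765 tested. Among the listed let-7 targets 24 were then higher in place of 19, and 6 lower in place of 3. Of the 6 oncofetal genes 5 were lower, the added call being HMGA2 (log2 fold -0.32, limma adjusted p = 0.015). The other 5 genes kept their calls under the replicate block. Across the alternatives HMGA1 stayed lower and past the threshold. Total-count scaling changed most: it gave 6155 enriched and 1655 depleted genes, against 3758 and 3550 with the authors' size factors, and called 1 of the 6 genes higher and 1 lower. HMGA2 had a log2 fold of 0.18 in place of -0.32 under it. The let-7 target list then had 30 genes higher and 0 lower in limma (also 0 at an unadjusted p under 0.05), while edgeR and DESeq2 with their own scaling gave 3 and 5 lower. Under total-count scaling the biogenesis list had 12 of 19 higher and 1 lower, and the oncofetal list 4 of 11 higher and 1 lower. The HMG list had 5 of 12 higher and 5 lower, and the KH domain list 8 of 22 higher and 6 lower. Of all tested genes 36.7% were higher and 9.86% lower under this scaling. The oncofetal, HMG and KH domain lists were near that share of higher genes. The oncofetal list was near the share of lower genes too, while the HMG and KH domain lists lay above it. With mitochondrial and small RNA genes left out of the total, HMGA2 was at -0.19 and LIN28B at 0.23. Neither passed (limma adjusted p = 0.32 and 0.23). With the authors' size factors LIN28B had log2 folds from -0.029 to 0.25 with 1 library left out. Leaving out each library gave 3121 to 3824 enriched and 2881 to 3719 depleted genes, and 4 to 5 of the 6 genes lower. The cause of these changes was not tested beyond the scaling itself.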
